A study of Mus musculus with 536 samples.

Results

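The chaperone genes Hspa8, Hsph1, Dnajb1, Hsp90aa1, Hspa5, Hspd1 and Hspe1 were followed in mouse peripheral blood after total body irradiation. These 7 members were taken by name from the 12393 genes that the array table could name, and each was read from its brightest probe set, by the mean of the 536 arrays. The study profiled blood of C57BL/6 mice aged 10 to 12 weeks on the Affymetrix Mouse 430A 2.0 array after a single Cs137 exposure at 480 cGy per minute. Blood was taken by terminal cardiac puncture into PAXgene fluid, and globin transcripts were depleted from the RNA before labelling.

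The labels named no transgene or deletion in any group. The dose and time set held 240 untreated mice in 48 groups of 5, at 0 cGy and at 7 doses (100, 200, 300, 450, then 600, 800 and 1050 cGy), sampled at 6, 24, 48, 72, 120 and 168 hr, with sex labelled unknown. The sex and treatment set held 226 mice (111 females and 115 males) in 48 groups of 3 to 5, at 0, 200, 300 and 600 cGy and at 6 and 24 hr, with no agent or with the agents labelled GCSF or LPS. A smaller set for the agents, called the small treatment set, had 50 mice and 9 groups (5 or 6 mice each) at 6 hr, with 0, 150 and 600 cGy with no agent, GCSF or LPS. A small 7 day set held 18 mice in 4 groups, of which 3 mice at 0 cGy and 10 mice at 150 cGy were collected at 168 hr. The labels did not state the dose of either agent or when it was given. Unirradiated mice (0 cGy) of the same set, time and agent were the controls for the effect of dose. Each agent was compared with no agent in mice of the same set, time and dose, and males were compared with females.

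Chaperones bind unfolded proteins and let them fold, and cells that face heat or other protein damage raise many of them through the transcription factor HSF1. In the cytosol Hspa8, the constitutive HSP70, works with Dnajb1, an HSP40 that delivers clients and stimulates its ATPase, and with Hsph1, an HSP110 nucleotide exchange factor, and hands clients to Hsp90aa1, the inducible cytosolic HSP90. Hspa5 (BiP) is the HSP70 of the endoplasmic reticulum, where the unfolded protein response controls it, and Hspd1 (HSP60) with its lid Hspe1 (HSP10) forms the folding chamber of mitochondria. In blood these transcripts can come from leukocytes, reticulocytes and platelets together. The samples also carried hepatocyte and tissue macrophage transcripts, most of all late after high doses, as given below.

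The promoters of the members differed in the elements through which these 2 systems act, and 3 of them are printed because they carry such an element. RefSeq windows on GRCm38.p6, from 250 bases before to 50 bases after a gene's start, were found for 5 of the 7 members (8 windows); Hspa8 and Hsp90aa1 had no entry. Capitals mark matches to the heat shock motifs GAANNTTC and TTCNNGAA, to a heat shock element of 3 units (GAANNTTCNNGAA or TTCNNGAANNTTC), or to the endoplasmic reticulum stress response element (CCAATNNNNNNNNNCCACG or its reverse complement). Both strands were searched, and the 3-unit element contains the shorter motifs.
Hsph1, chr5:149636266-149636565, minus strand: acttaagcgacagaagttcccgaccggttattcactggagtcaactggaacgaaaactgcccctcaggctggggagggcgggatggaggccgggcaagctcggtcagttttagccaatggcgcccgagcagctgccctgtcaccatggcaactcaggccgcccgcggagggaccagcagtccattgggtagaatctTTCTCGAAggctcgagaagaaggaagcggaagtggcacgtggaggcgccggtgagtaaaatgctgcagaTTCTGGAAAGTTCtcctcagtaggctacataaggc
Hspe1, chr1:55087898-55088197, plus strand: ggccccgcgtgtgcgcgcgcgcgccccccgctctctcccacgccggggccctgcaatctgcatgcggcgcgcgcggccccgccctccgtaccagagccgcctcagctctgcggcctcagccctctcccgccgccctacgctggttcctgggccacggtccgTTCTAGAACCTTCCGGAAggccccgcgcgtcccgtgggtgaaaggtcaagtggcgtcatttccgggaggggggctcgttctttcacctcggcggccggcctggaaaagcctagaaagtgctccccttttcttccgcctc
Hspa5, chr2:34771840-34772139, plus strand: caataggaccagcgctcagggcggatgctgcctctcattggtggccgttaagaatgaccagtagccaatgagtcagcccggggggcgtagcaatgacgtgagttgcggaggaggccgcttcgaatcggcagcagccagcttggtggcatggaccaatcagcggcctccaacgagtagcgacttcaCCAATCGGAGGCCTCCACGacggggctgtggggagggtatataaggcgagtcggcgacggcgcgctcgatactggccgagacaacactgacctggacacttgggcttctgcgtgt

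The Hsph1 window held the 3-unit match TTCTGGAAAGTTC, at bases 266 to 278 of the window, and the shorter match TTCTCGAA. The Hspe1 window held 2 overlapping 3-unit matches, TTCTAGAACCTTC at bases 162 to 174 and GAACCTTCCGGAA at bases 167 to 179. Hspd1 and Hspe1 start head to head on chromosome 1, so the first Hspd1 window shared 285 bases with the Hspe1 window on the opposite strand and held the same matches. The Hspa5 window held the stress element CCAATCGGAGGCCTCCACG at bases 186 to 204 and none of the heat shock motifs. Both Dnajb1 windows (chromosome 8) and the second Hspd1 window held none of these letters. Among 32544 distinct RefSeq windows, GAANNTTC was found in 7.89%, TTCNNGAA in 8.55%, the 3-unit element in 0.608% and the endoplasmic reticulum stress element in 0.12%. These matches describe the letters only, and no binding was measured here.

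The arrays carried the transcripts of blood cells, with log2 expression over the mice from 5.35 to 14.48 for the erythroid gene Alas2, 5.2 to 11.74 for the B cell gene Cd79a, 6.66 to 10.66 for the T cell gene Cd3e, 4.94 to 14.61 for the neutrophil gene S100a8 and 11.88 to 14.24 for the platelet gene Pf4. Alb, the hepatocyte gene for albumin, ranged from 4.79 to 14.79 and was at 10 or more in every mouse at 450 cGy and above at 120 and 168 hr. In bulk blood, fewer cells of a type and less RNA per cell cannot be told apart. The spread of each array (the interquartile range of its log2 values) moved with all 7 members. Over the 48 group means of the dose and time set, Pearson's r with the array spread was 0.915 for Hspa8, 0.903 for Hspd1, 0.883 for Hspa5, 0.882 for Hspe1, 0.845 for Dnajb1, 0.791 for Hsp90aa1 and 0.696 for Hsph1. With the mean of the hepatocyte genes r ran from 0.43 (Hsph1) to 0.824 (Hspa5), and with that of the tissue macrophage genes from 0.589 (Dnajb1) to 0.896 (Hspa5). With the mean of the erythroid genes it ran from -0.762 (Hspa5) to -0.427 (Hsph1). For the monocyte genes r ran from 0.658 (Hsph1) to 0.867 (Hspa8), and for the NK cell genes from 0.402 (Hspa5) to 0.706 (Dnajb1). The B cell genes gave 0.039 (Hspa5) to 0.508 (Dnajb1), and the T cell genes -0.247 (Hspa5) to 0.302 (Dnajb1). Mature neutrophil genes gave -0.5 (Hsp90aa1) to -0.337 (Hspa5), and platelet genes -0.01 (Hspe1) to 0.356 (Hsph1). These means share arrays and are given as a description, and the part of these cells was not tested. A fit with the array spread as a covariate was therefore run for every comparison as an alternative. The shares of all genes given below are those of the main fit. Member counts under this and other alternative fits have no such share beside them. They do not show whether the members changed more than all genes did.

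At 6 hr the chaperones were lower in irradiated blood. Hsp90aa1, Hspa8, Hspe1, Hspd1, Hsph1 and Dnajb1 fell with dose, so that 6 of the 7 members passed the test downward, beside 18.5% of all 12393 genes. A gene was called when the Benjamini-Hochberg adjusted p of its linear dose trend in limma was under 0.05, and differences are log2 values at 600 minus 0 cGy from the same fit, where a difference of 1 is a 2-fold change. The median difference of the members was -1.07, and that of all genes was 0.13. At 600 cGy alone, 23.2% of all genes were called lower and 25.8% higher than 0 cGy. How many of all genes had groups without overlap was not counted, here or in later comparisons.

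Among the cytosolic HSP70 machinery, Hspa8 read 10.38, 10.41, 10.42, 10.5 and 10.66 in the 5 unirradiated mice and 9.29, 9.39, 9.45, 9.53 and 9.58 in the 5 mice at 600 cGy. Every mouse at 600 cGy lay below every control, and the difference was -1.03 ± 0.23 (SE, limma adjusted p of the dose trend = 0.00275). The difference itself had a limma adjusted p of 8.87e-05. Hspa8 was called lower at all 7 doses, down to a group mean of 9.83 ± 0.46 (SD, n = 5) at 100 cGy. Its exchange factor Hsph1 read 6.95, 7.14, 7.15, 7.22 and 7.36 at 0 cGy and 5.17, 5.91, 6.19, 6.60 and 6.63 at 600 cGy. These groups did not overlap either, with a difference of -1.07 ± 0.24 (limma adjusted p = 5.78e-06), although the mice at 600 cGy were spread over a wider range. The HSP40 gene Dnajb1 read 7.30, 7.36, 7.48, 7.62 and 7.93 at 0 cGy against 6.50, 6.62, 6.66, 6.78 and 6.88 at 600 cGy. All irradiated values were lower, and Dnajb1 fell by 0.85 ± 0.21 on the log2 scale (limma adjusted p = 3.59e-05).

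Hsp90aa1 had the largest 6 hr difference of the members. Its values were 8.71, 8.87, 8.98, 9.31 and 9.41 without radiation and 7.50, 7.66, 7.74, 7.78 and 7.93 at 600 cGy, with no overlap. The difference was -1.34 ± 0.24 (limma adjusted p = 3.18e-05). The chaperonin genes fell together: Hspd1 read 7.69, 7.74, 7.97, 8.13 and 8.15 at 0 cGy and 6.52, 6.59, 6.80, 7.07 and 7.30 at 600 cGy. Hspe1 read 8.44, 8.48, 8.58, 8.64 and 8.88 against 7.10, 7.30, 7.49, 7.51 and 7.62. The controls of both genes lay above all mice at 600 cGy, with differences of -1.08 ± 0.27 for Hspd1 (limma adjusted p = 0.000669) and -1.20 ± 0.31 for Hspe1 (limma adjusted p = 0.0129).

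Hspa5 was the exception at 6 hr. It read 8.59, 8.69, 8.77, 9.10 and 9.11 at 0 cGy and 7.96, 7.99, 8.19, 8.25 and 8.66 at 600 cGy, and these groups overlapped. Its trend missed the threshold (limma adjusted p = 0.483). The difference at 600 cGy was -0.64 ± 0.34 (limma adjusted p = 0.105 for the difference itself), and Hspa5 was called lower than 0 cGy at 1 dose of 7. Its 7 irradiated group means lay between 8.07 and 8.51, against 8.85 ± 0.24 (SD, n = 5) at 0 cGy, with no called slope over the doses.

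Over the 7 doses, 35 of the 49 member and dose pairs at 6 hr were called lower than 0 cGy and 0 were called higher, beside 21.1% of all gene and dose pairs called lower and as large a share called higher. The array titles carry a code whose middle number splits the set into 5 series, read here as array runs, which the titles do not state. Within these series the 600 cGy mouse was below the 0 cGy mouse in 5 of 5 for the 6 called members and in 4 of 5 for Hspa5.

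**Figure D1:**
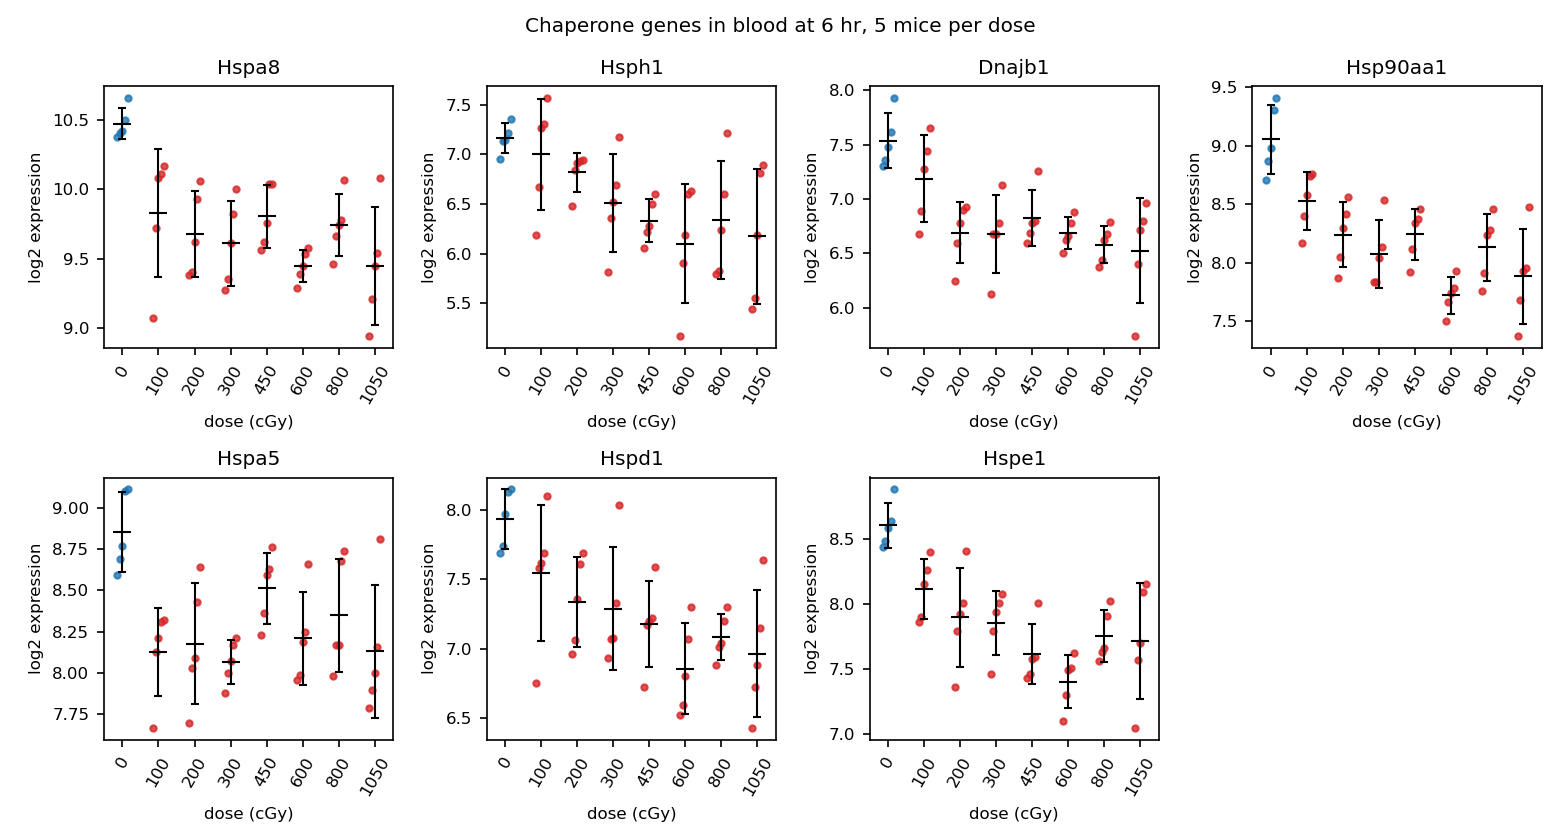
Log2 expression of the 7 chaperone genes at 6 hr by dose (cGy), with each point 1 mouse (blue, 0 cGy; red, irradiated) and bars the mean and SD of 5 mice. The mice at 600 cGy lie below every control in all panels but Hspa5, where the groups overlap. The share of all genes without overlap was not counted.

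The array spread fell at the same time, from a mean of 2.41 at 0 cGy to between 1.99 and 2.08 at the 7 doses. With the spread as a covariate 5 of the 7 dose trends were called, Hspe1 was lost (limma adjusted p = 0.12), and 7 of the 49 pairs were called. The share of all genes called under that fit is not given here. Without replicate 4 Hspe1 missed the threshold (limma adjusted p = 0.11), and without replicate 2 Hspa8 did (limma adjusted p = 0.064). Marker genes moved too: 13 of 14 B cell genes fell (median difference -3.03), as did 11 of 13 T cell genes (-1.33) and 6 of 9 NK cell genes, and 12 of 12 neutrophil genes rose (2.19), while none of 14 erythroid and none of 17 hepatocyte genes was called. The part of these cell types in the chaperone result was not tested.

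From 24 to 72 hr different members were called at each time. Hsph1 rose with dose at 24 hr, 1 of 7 members beside 18.9% of all genes called upward. It read 6.82, 7.06, 7.60, 7.79 and 8.36 at 0 cGy and 7.93, 7.96, 7.98, 8.77 and 9.88 at 1050 cGy. These groups overlapped, and the slope was 0.084 ± 0.018 log2 per 100 cGy (limma adjusted p = 0.000114). Against 0 cGy Hsph1 was called higher at 3 of 7 doses, and not at 600 cGy (0.50, limma adjusted p = 0.11). Hspe1 fell at 24 hr, 1 of 7 members beside 19.8% of all genes. It read 9.08, 9.11, 9.21, 9.21 and 9.36 at 0 cGy and 7.70, 7.87, 8.32, 8.69 and 9.48 at 600 cGy, so that 4 of the 5 irradiated mice were below all controls and 1 was above them. Hspe1 was called lower at this dose alone of the 7, and not at 1050 cGy (-0.56, limma adjusted p = 0.217). Its slope of -0.080 ± 0.023 (limma adjusted p = 0.00394) was lost with the array spread as a covariate (-0.017, adjusted p = 0.60) and without replicate 5 (-0.054, adjusted p = 0.14). With that covariate Hsp90aa1 (0.062, adjusted p = 4.13e-05), Hspa5 (0.05, 0.00937) and Hspa8 (0.032, 0.031) were called upward at 24 hr beside Hsph1, which made 4 of 7 members.

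At 48 hr Hsph1 fell with dose. It read 8.06, 8.17, 8.27, 8.52 and 9.46 at 0 cGy and 7.48, 7.65, 7.76, 7.78 and 8.02 at 1050 cGy, with every mouse at 1050 cGy below every control. Hsph1 was called lower at 2 of 7 doses, and not at 600 cGy (-0.16, limma adjusted p = 0.626). Its slope was -0.084 ± 0.018 per 100 cGy (limma adjusted p = 2.3e-05). Hspe1 (-0.073 ± 0.023, limma adjusted p = 0.00522), Hsp90aa1 (-0.042 ± 0.018, limma adjusted p = 0.0378) and Dnajb1 (-0.038 ± 0.015, limma adjusted p = 0.0313) also fell, which made 4 of 7 members beside 23.3% of all genes. The Hsp90aa1 and Dnajb1 calls at 48 hr ended when each array was centred on its median (adjusted p = 0.10 and 0.097), with dose on a log2 scale (0.11 and 0.084), without the arrays whose Alb was 10 or more (0.063 and 0.48), and without replicate 3, 4 or 5 for Dnajb1 and without replicate 1, 2, 3 or 4 for Hsp90aa1. That of Hsp90aa1 also ended with its probe sets averaged (-0.023, adjusted p = 0.34), and that of Dnajb1 with only the 48 hr groups in the fit (0.063). The Hspe1 call ended without replicate 2 (-0.061, adjusted p = 0.051). Hspa8 and Hspd1 (both -0.040, adjusted p = 0.000573 and 0.00962) were called downward as well with the array spread as a covariate, and the called member and dose pairs at 48 hr went from 5 to 33 of 49.

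At 72 hr Hspa5 and Hspd1 rose with dose. Hspa5 read 8.37, 8.71, 9.0, 9.32 and 10.07 at 0 cGy and 9.80, 10.12, 10.20, 10.62 and 10.76 at 600 cGy. Only the highest control reached into the irradiated range, and the slope was 0.124 ± 0.025 per 100 cGy (limma adjusted p = 6.6e-06). The mitochondrial Hspd1 read 7.59, 8.06, 8.12, 8.53 and 9.10 against 8.92, 9.12, 9.17, 9.24 and 9.47, again with 1 control inside the irradiated range. Its slope was 0.062 ± 0.020 (limma adjusted p = 0.00516). Against 0 cGy Hspd1 was called higher at 2 of 7 doses, and not at 1050 cGy (0.57, limma adjusted p = 0.0678). These were 2 of 7 members called upward, beside 26.3% of all genes. Hspe1, the partner of Hspd1, was not called at 72 hr (slope -0.045 ± 0.023, limma adjusted p = 0.0876), and with the array spread as a covariate it was called downward (-0.085, adjusted p = 5.45e-06).

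Dnajb1 and Hsph1 fell with dose at 72 hr, 2 of 7 members beside 27.1% of all genes. Dnajb1 read 7.89, 8.38, 8.48, 8.50 and 8.90 at 0 cGy and 7.42, 7.57, 7.66, 7.67 and 7.68 at 1050 cGy, with no overlap and a slope of -0.043 ± 0.015 (limma adjusted p = 0.0126). It was called lower at 4 of 7 doses, and not at 600 cGy (-0.25, limma adjusted p = 0.292) or 800 cGy (-0.22, 0.386). The Hsph1 slope was -0.047 ± 0.018 (limma adjusted p = 0.0195). Hspa8 and Hsp90aa1 were not called. Both downward calls ended without replicate 3 (adjusted p = 0.062 for Dnajb1 and 0.088 for Hsph1) and without the arrays whose Alb was 10 or more (0.09 and 0.11), and Hsph1 also with its probe sets averaged (0.66) or dose on a log2 scale (0.095). The Hspd1 rise ended with the array spread as a covariate (adjusted p = 0.10) and after quantile normalisation (0.11), and the Hspa5 rise held under both. All 14 erythroid genes fell at 72 hr (median -4.13) and 10 of 12 tissue macrophage genes rose (3.43), and their part in these results was not tested.

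Late after irradiation the members differed in which doses lay below or above the controls. At 120 hr all 7 had a rising slope over 0 to 1050 cGy, beside 35.4% of all genes, and at 168 hr 5 of 7 did, beside 35.5%. Against 0 cGy, Hspa5 and Hspa8 at 120 hr, and these and Hspe1 at 168 hr, had both doses called lower (within 100 to 450 cGy) and doses called higher (within 600 to 1050 cGy). At 120 hr Hspd1 (4 doses) and Hsph1 (2 doses) were called higher only, and Hspe1 (4), Dnajb1 (3) and Hsp90aa1 (2) lower only. At 168 hr Hsph1 (6), Dnajb1 (5), Hspd1 (3) and Hsp90aa1 (3) were called lower only. Of the 49 member and dose pairs, 13 were called lower and 11 higher than 0 cGy at 120 hr, and 27 lower and 6 higher at 168 hr. Over all genes 26.2% of the gene and dose pairs were called lower and 27.2% higher at 120 hr, and 26.2% lower and 26.6% higher at 168 hr.

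Hspa5 covered the widest range of the members. At 120 hr it read 9.30, 9.41, 9.42, 9.47 and 9.57 at 0 cGy, 8.04, 8.09, 8.20, 8.48 and 8.94 at 100 cGy, and 11.03, 11.51, 11.68, 11.86 and 12.24 at 1050 cGy. The 3 groups did not overlap: the difference from 0 cGy was -1.08 ± 0.34 at 100 cGy (limma adjusted p = 0.00311) and 2.23 ± 0.34 at 1050 cGy (limma adjusted p = 4.36e-09). At 168 hr the same order held, with 9.80, 10.04, 10.16, 10.47 and 10.70 at 0 cGy, 8.08, 8.65, 8.86, 8.90 and 9.40 at 300 cGy, and 11.33, 11.59, 11.60, 11.65 and 11.70 at 1050 cGy. The differences were -1.46 ± 0.34 (limma adjusted p = 8.36e-05) and 1.34 ± 0.34 (limma adjusted p = 0.00036).

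The mitochondrial pair reached its peaks at different times. Hspd1 read 7.90, 8.07, 8.16, 8.19 and 8.23 at 0 cGy and 120 hr, 7.42, 7.43, 7.63, 7.96 and 8.03 at 100 cGy, and 9.15, 9.31, 9.74, 9.91 and 10.18 at 1050 cGy. The high dose stood clear of the controls (1.55 ± 0.27, limma adjusted p = 1.84e-07), and 100 cGy overlapped them (-0.42 ± 0.27, limma adjusted p = 0.155). Hspe1 at 120 hr read 9.27, 9.42, 9.53, 9.59 and 9.85 at 0 cGy, 7.57, 7.90, 7.94, 8.32 and 8.48 at 100 cGy, and 9.01, 9.74, 10.10, 10.24 and 10.37 at 1050 cGy. It was clearly lower at 100 cGy (-1.49 ± 0.31, limma adjusted p = 1.26e-05) and overlapped the controls at 1050 cGy (0.36 ± 0.31, limma adjusted p = 0.352).

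At 168 hr Hspe1 rose above its controls. It read 8.69, 9.26, 9.27, 9.28 and 9.35 at 0 cGy, 7.43, 7.57, 7.71, 7.84 and 8.05 at 300 cGy, and 10.30, 10.43, 10.76, 10.95 and 11.19 at 1050 cGy. None of the 3 groups overlapped, with differences of -1.45 ± 0.31 (limma adjusted p = 2.09e-05) and 1.56 ± 0.31 (limma adjusted p = 5.9e-06). Hspd1 at 168 hr was lower at 300 cGy (-1.46 ± 0.27, limma adjusted p = 1.01e-06) and was not called at 1050 cGy (0.53 ± 0.27, limma adjusted p = 0.0783).

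**Figure D2:**
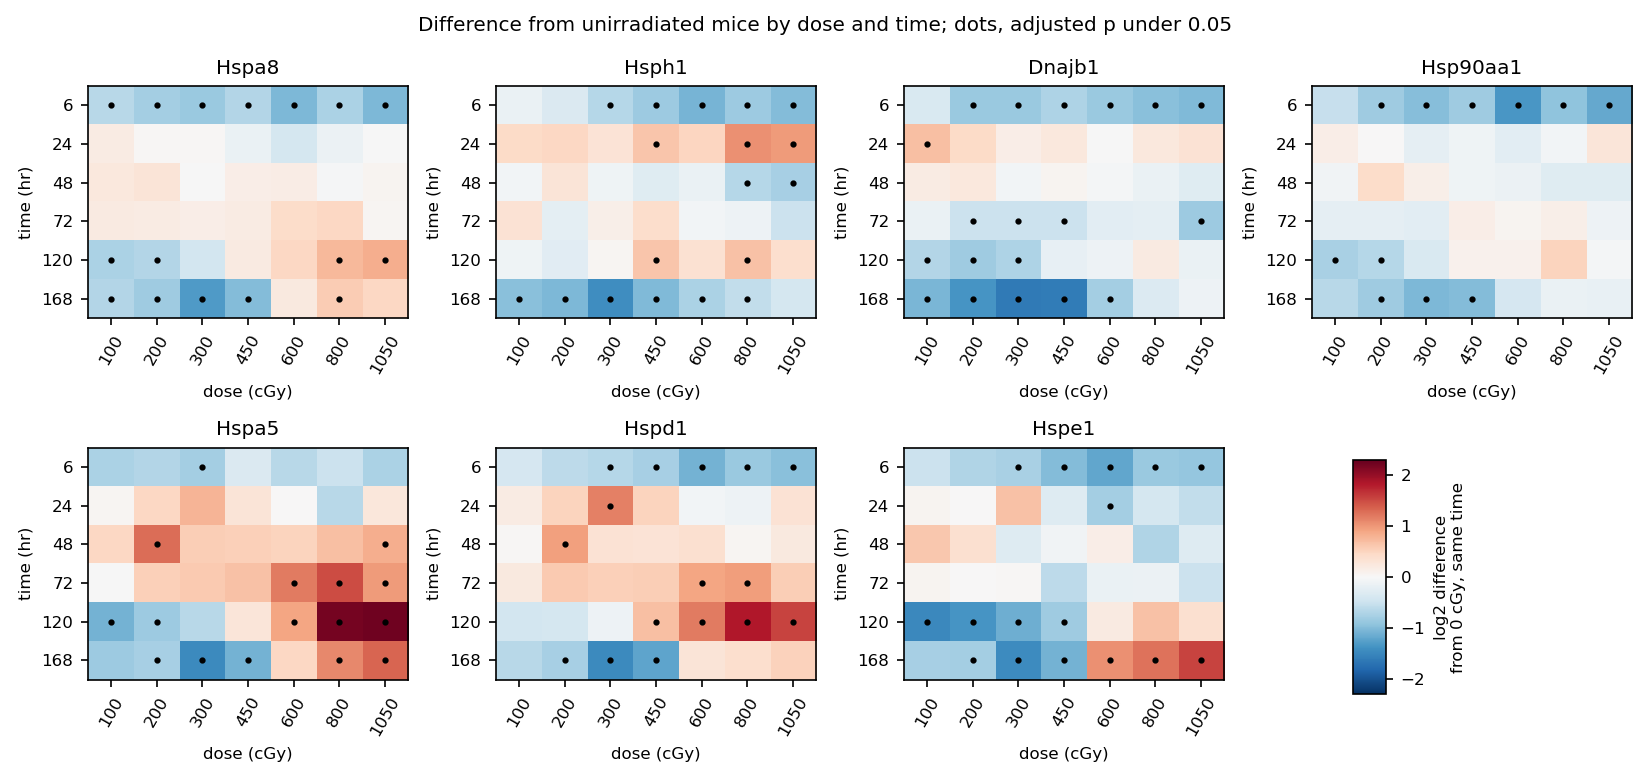
Log2 difference of each chaperone gene from the unirradiated mice of the same time, by dose (columns, cGy) and time (rows, hr), with blue lower, red higher and dots marking limma adjusted p under 0.05. All panels are blue at 6 hr, Hspa5 and Hspd1 are red at the doses from 200 cGy at 72 hr, and at 168 hr the doses from 100 to 450 cGy are blue in every panel.

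Hspa8 had the same order of these 3 doses in a smaller range. At 120 hr it read 10.86, 10.97, 11.09, 11.15 and 11.19 at 0 cGy, 9.86, 10.13, 10.26, 10.60 and 10.74 at 100 cGy, and 11.73, 11.86, 11.89, 11.93 and 12.07 at 1050 cGy. The 3 groups stood apart, with differences of -0.73 ± 0.23 (limma adjusted p = 0.00279) and 0.84 ± 0.23 (limma adjusted p = 0.000884). After quantile normalisation the 100 cGy calls of Hspa8 (-0.26, adjusted p = 0.298) and Hspa5 (-0.41, adjusted p = 0.247) at 120 hr ended, and with its probe sets averaged so did the 1050 cGy call of Hspa8 (0.42, adjusted p = 0.107).

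Dnajb1, Hsph1 and Hsp90aa1 were not called above the controls at any dose at 168 hr. Dnajb1 read 8.61, 8.83, 8.85, 8.86 and 9.17 at 0 cGy, 6.83, 6.94, 7.38, 7.46 and 7.57 at 300 cGy, and 8.35, 8.55, 8.85, 8.88 and 9.13 at 1050 cGy. It was lower at 300 cGy by every mouse (-1.63 ± 0.21, limma adjusted p = 1.13e-11) and overlapped the controls at 1050 cGy (-0.11 ± 0.21, limma adjusted p = 0.658). Hsph1 read 8.64, 8.95, 9.23, 9.25 and 9.25 at 0 cGy, 7.39, 7.41, 7.50, 7.90 and 8.04 at 300 cGy, and 8.29, 8.58, 8.63, 8.84 and 8.97 at 1050 cGy. It fell at 6 of 7 doses at 168 hr, with the largest difference at 300 cGy (-1.42 ± 0.24, limma adjusted p = 1.65e-07). The calls at 600 cGy (-0.73) and 800 cGy (-0.56) ended without replicate 2 or 4, and that at 800 cGy also without replicate 3 or 5 and with the probe sets averaged. Hsp90aa1 was called lower at 200, 300 and 450 cGy, with a difference of -1.03 ± 0.24 at 300 cGy (limma adjusted p = 7.2e-05).

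The slopes at 168 hr were 0.241 ± 0.023 log2 per 100 cGy for Hspe1 (limma adjusted p = 9.22e-20), 0.213 ± 0.025 for Hspa5 (2.79e-14), 0.124 ± 0.017 for Hspa8 (1.5e-11), 0.120 ± 0.020 for Hspd1 (1.64e-08) and 0.063 ± 0.015 for Dnajb1 (0.000104). Hsp90aa1 (0.034 ± 0.018, 0.0639) and Hsph1 (0.020 ± 0.018, 0.292) missed the threshold. The Dnajb1 call ended with dose on a log2 scale (0.019, adjusted p = 0.721). Between 0 and 450 cGy, a range chosen after the data were seen, all 7 slopes at 168 hr were called downward, from -0.206 for Hsp90aa1 to -0.331 for Dnajb1, while at 120 hr those of Hspd1 (0.169) and Hsph1 (0.139) stayed called upward. The share of all genes called over that range is not given here. Within the 5 title series at 168 hr, Hspe1 at 600 cGy was above its 0 cGy mouse in 5 of 5, by 0.80 to 1.5, while Hsph1, Dnajb1 and Hsp90aa1 were below in 4 of 5 and 1 same series was above for each.

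**Figure D3:**
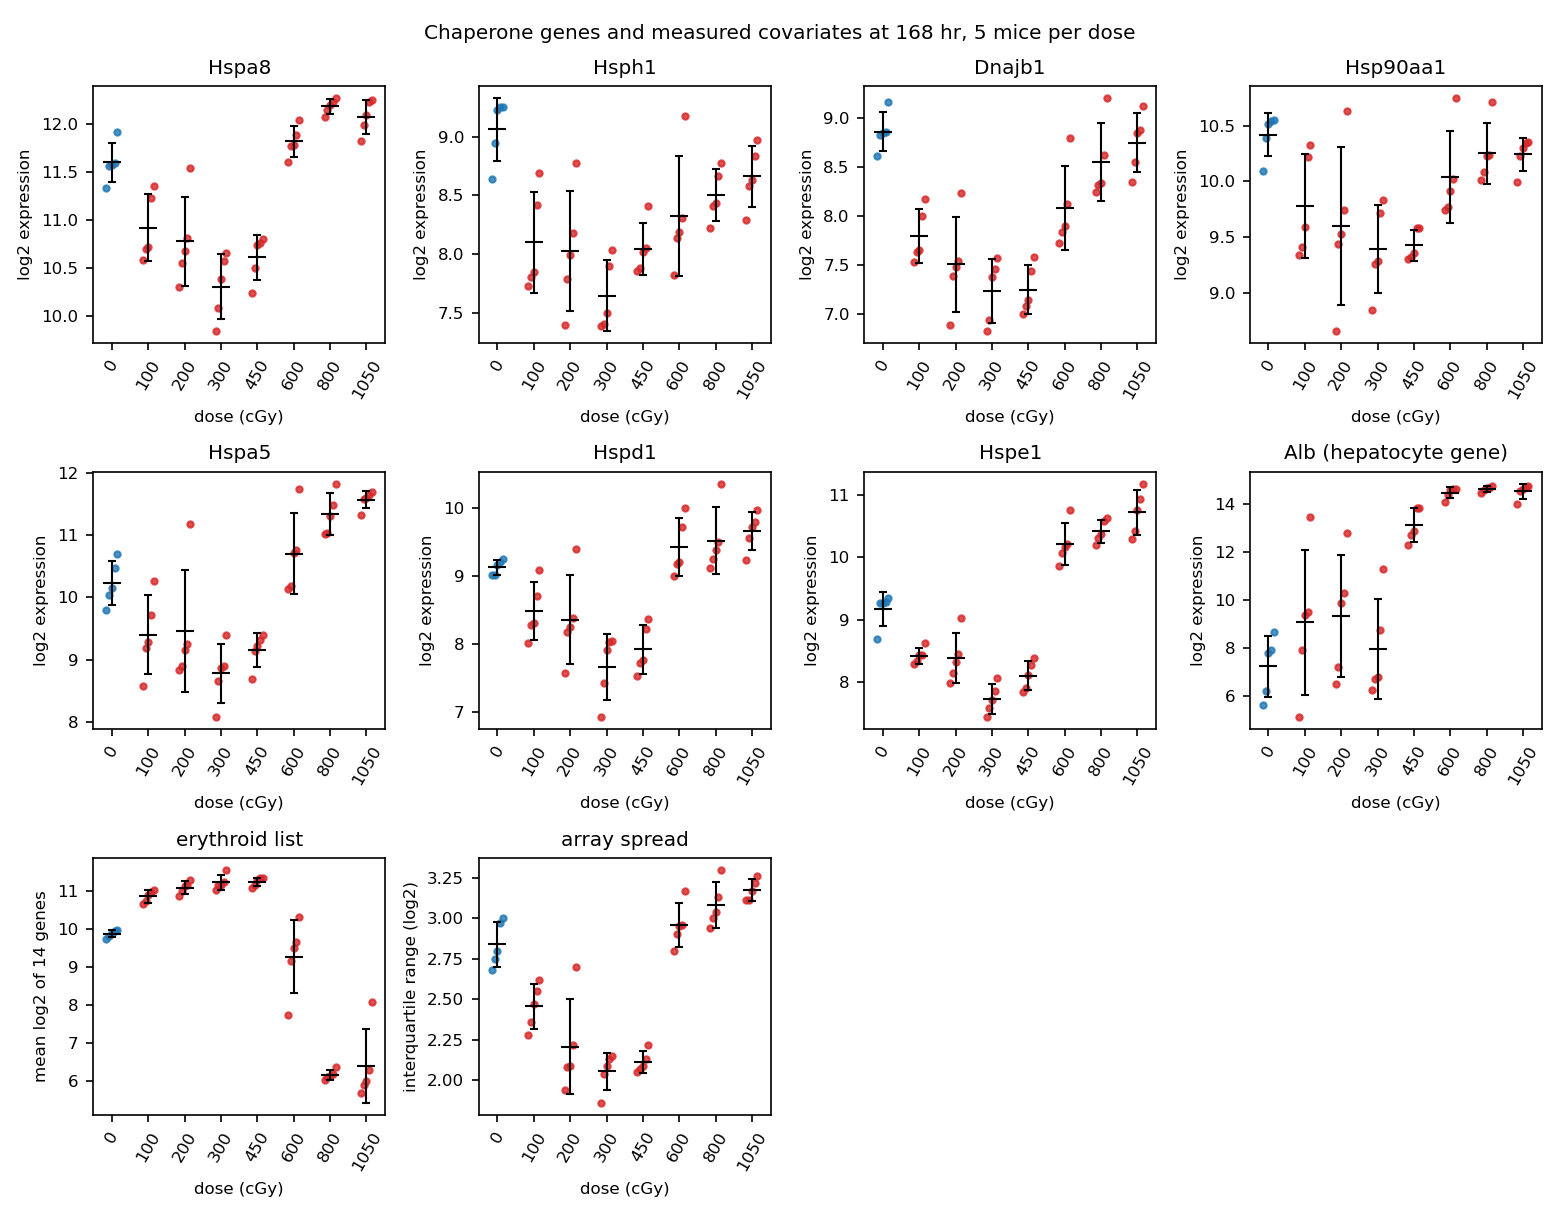
Log2 expression of the 7 chaperone genes and of Alb, the mean of 14 erythroid genes and the array spread at 168 hr by dose (cGy), with each point 1 mouse (blue, 0 cGy; red, irradiated) and bars the mean and SD of 5 mice. Every chaperone mean is lowest at 300 cGy, where the array spread is lowest too (2.05).

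Other measures also varied along the doses. The array spread at 168 hr averaged 2.84 without radiation, dropped to 2.46, 2.21, 2.05 and 2.11 over the doses from 100 to 450 cGy, and reached 2.96, 3.08 and 3.17 from 600 cGy up. The erythroid list averaged 9.87 without radiation, between 10.85 and 11.23 over the doses from 100 to 450 cGy, and 9.27, 6.17 and 6.40 from 600 cGy up, with 14 of 14 genes falling over the dose range. All 17 hepatocyte genes rose at 120 hr (median difference at 600 cGy 6.82) and 168 hr (7.86), as did all 12 tissue macrophage genes (3.21 and 1.91). The part of these cells in the chaperone values was not tested.

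Of all genes, 9.96%, 29.0%, 32.0% and 30.3% were called lower at 100, 200, 300 and 450 cGy at 168 hr. At 120 hr these shares were 31.7%, 29.6%, 23.2% and 22.2%. At 100 to 450 cGy, 24 of the 28 member and dose pairs were called lower at 168 hr. With the array spread as a covariate 4 of these 24 kept the call, 7 ended and 13 changed sign; at 120 hr 13 pairs were called lower, of which 3 ended and 10 changed sign. Dnajb1 had the 4 kept calls, with differences of -0.58 to -0.73 (limma adjusted p from 0.000486 to 0.0221). Under that covariate Hspe1 remained higher at 600, 800 and 1050 cGy (0.82, 0.78 and 0.90) and Hspa5 at 800 and 1050 cGy (0.48 and 0.47). The slopes of Hsp90aa1, Hsph1 and Dnajb1 then turned negative at 120 and 168 hr, and that of Hspd1 at 168 hr, while the calls of Hspe1 and Hspa8 ended at 120 hr and those of Hspa5 and Hspa8 at 168 hr. Quantile normalisation ended the slope calls of Dnajb1, Hsp90aa1 and Hsph1 at 120 hr and that of Dnajb1 at 168 hr. Leaving out arrays with Alb of 10 or more removed every array at 450 cGy and above and made all 7 slopes negative at both times, from -0.001 (Hsph1) to -0.325 (Hspe1) at 120 hr.

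The dose slope differed between collection times for all 7 members (limma moderated F test, Benjamini-Hochberg adjusted p from 1.03e-25 for Hspe1 to 3.54e-08 for Hsp90aa1), beside 92.3% of all genes. Over the 48 groups Hspa5 ranged from a mean of 8.07 ± 0.13 (SD, n = 5) at 300 cGy and 6 hr to 11.66 ± 0.45 at 1050 cGy and 120 hr. Hspe1 ranged from 7.40 ± 0.21 at 600 cGy and 6 hr to 10.73 ± 0.37 at 1050 cGy and 168 hr, and Hspd1 from 6.86 ± 0.33 at 600 cGy and 6 hr to 9.95 ± 0.48 at 800 cGy and 120 hr. Hspa8 ran from 9.44 ± 0.43 at 1050 cGy and 6 hr to 12.19 ± 0.08 at 800 cGy and 168 hr. Hsph1, Dnajb1 and Hsp90aa1 were also lowest at 6 hr, at 600 or 1050 cGy, but highest in the unirradiated mice of 168 hr, at 9.06 ± 0.27, 8.86 ± 0.20 and 10.42 ± 0.19. Control levels themselves varied between times, from 7.16 to 9.06 for Hsph1 and from 8.85 to 10.23 for Hspa5. The median SD within a group was 0.28 to 0.45 over the 7 members.

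The sex and treatment set repeated the 6 hr comparison in other mice and with agents. Without agent all 7 members fell with dose at 6 hr, with differences of -0.60 to -0.84, beside 12.4% of all genes. Under GCSF all 7 fell as well (-0.65 to -1.09, beside 23.9%), and under LPS 6 of 7 fell (-0.71 to -1.23, beside 15.8%), Hspe1 being the one not called (-0.35 ± 0.22, limma adjusted p = 0.268). The untreated result was fragile: 2 of the 7 calls were left without replicate 4, and with the array spread as a covariate Hsph1 alone was called. Under GCSF 3 of 7 were called with that covariate, the Dnajb1 call ended without replicate 4 (adjusted p = 0.075) and the Hsph1 call without replicate 1 (0.12). Under LPS the Hspa5 call ended with the covariate (adjusted p = 0.20) and without replicate 1, 3 or 5, and the Hsph1 call with the covariate (0.18) and without replicate 2 (0.11). The dose slope under GCSF or LPS was not called different from that without agent at 6 hr for any member in limma (0 members beside 0.0161% and 6.45% of all genes, 0 members at an unadjusted p under 0.05 for either agent).

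At 24 hr LPS gave called differences from the dose slope without agent, in 3 members, and GCSF in none. Without agent Hspe1 (-1.0 ± 0.20, limma adjusted p = 5.94e-07), Hspa8 (-0.70 ± 0.17, 0.000117) and Dnajb1 (-0.59 ± 0.18, 0.00247) fell with dose, 3 of 7 beside 22.9% of all genes. Under GCSF 2 of 7 fell beside 17.4%, Hspa8 (-0.50 ± 0.17, limma adjusted p = 0.00856) and Hspe1 (-0.44 ± 0.20, 0.0344). The Hspe1 call under GCSF ended without replicate 1, 3 or 5 and in 4 other fits, and the Hspa8 call without replicate 1 (adjusted p = 0.051); the Dnajb1 call without agent ended without replicate 2 (0.076). Under LPS 5 of 7 members fell beside 9.80% of all genes: Hsp90aa1, Hspd1, Hspe1, Hsph1 and Hspa8.

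Hsp90aa1 under LPS at 24 hr read 9.35, 9.61, 9.99 and 10.04 in females and 10.03, 10.39, 10.64, 10.80 and 11.25 in males at 0 cGy. At 600 cGy it read 6.62, 7.25, 8.28, 8.57 and 9.21 in females and 9.0, 9.02, 9.19, 9.34 and 9.61 in males. Within each sex every mouse at 600 cGy was below every control, and the difference was -1.58 ± 0.25 (limma adjusted p = 1.65e-06).

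Without agent the same gene read 9.33, 9.71, 9.78, 9.80 and 10.06 in females and 8.98, 9.46, 9.49, 9.76 and 10.14 in males at 0 cGy, and 9.23, 9.26, 9.34, 9.81 and 10.01 in females and 9.02, 9.08, 9.51, 10.37 and 10.64 in males at 600 cGy. These groups overlapped (-0.02 ± 0.24, limma adjusted p = 0.902). The slope under LPS was lower than without agent by -0.231 ± 0.056 log2 per 100 cGy (limma adjusted p = 0.00107), and this ended without replicate 4 (-0.161, adjusted p = 0.075).

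The chaperonin gene Hspd1 under LPS read 7.53, 8.21, 8.44 and 8.54 in females and 8.34, 8.80, 9.0, 9.40 and 9.56 in males at 0 cGy, and 6.50, 6.67, 7.19, 7.23 and 7.67 in females and 6.91, 7.25, 7.43, 7.56 and 7.96 in males at 600 cGy. In males the doses stood apart and in females 1 control lay within the irradiated range (-1.36 ± 0.20, limma adjusted p = 4.74e-07). Without agent it read 8.10, 8.20, 8.47, 8.52 and 8.63 in females and 7.89, 8.13, 8.28, 8.38 and 8.61 in males at 0 cGy, and 7.97, 8.24, 8.53, 8.54 and 8.60 in females and 7.69, 8.30, 8.36, 8.41 and 8.45 in males at 600 cGy, with full overlap (-0.01 ± 0.19, limma adjusted p = 0.661). The slopes differed by -0.182 ± 0.045 (limma adjusted p = 0.00131).

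Hsph1 under LPS read 5.89, 6.25, 6.40 and 7.58 in females and 7.54, 7.80, 8.09, 8.15 and 9.02 in males at 0 cGy, and 5.01, 5.62, 5.88, 6.29 and 7.18 in females and 6.14, 6.73, 6.77, 6.88 and 7.19 in males at 600 cGy. The females overlapped and the males did not (-0.96 ± 0.24, limma adjusted p = 0.00502). Its slope differed from that without agent by -0.208 ± 0.054 (limma adjusted p = 0.00236). Hsp90aa1, Hspd1 and Hsph1 were the members with a lower slope under LPS at 24 hr, 3 of 7 beside 9.13% of all genes, and all 3 kept the call with the array spread as a covariate (-0.247, -0.191 and -0.219). The decline was not even over the doses: Hspd1 in males averaged 9.02, 7.49, 7.72 and 7.42 at 0, 200, 300 and 600 cGy. With that covariate the Hspa5 slope was called lower under LPS too (-0.115, adjusted p = 0.0153), Hsph1 was called upward without agent (0.105, 0.00305), and Dnajb1 (-0.051, 0.028) and Hsp90aa1 (-0.068, 0.0393) downward under GCSF. In the LPS trend itself, the Hsph1 call ended without replicate 4 or 5 (adjusted p = 0.065 and 0.078) and the Hspa8 call without replicate 4 (0.45) or after median centring (0.051), and both with only the groups compared in the fit (0.096 and 0.083). The GCSF slopes were not called different at 24 hr for any member in limma (0 members beside 0.00807% of all genes, 2 members at an unadjusted p under 0.05).

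**Figure D4:**
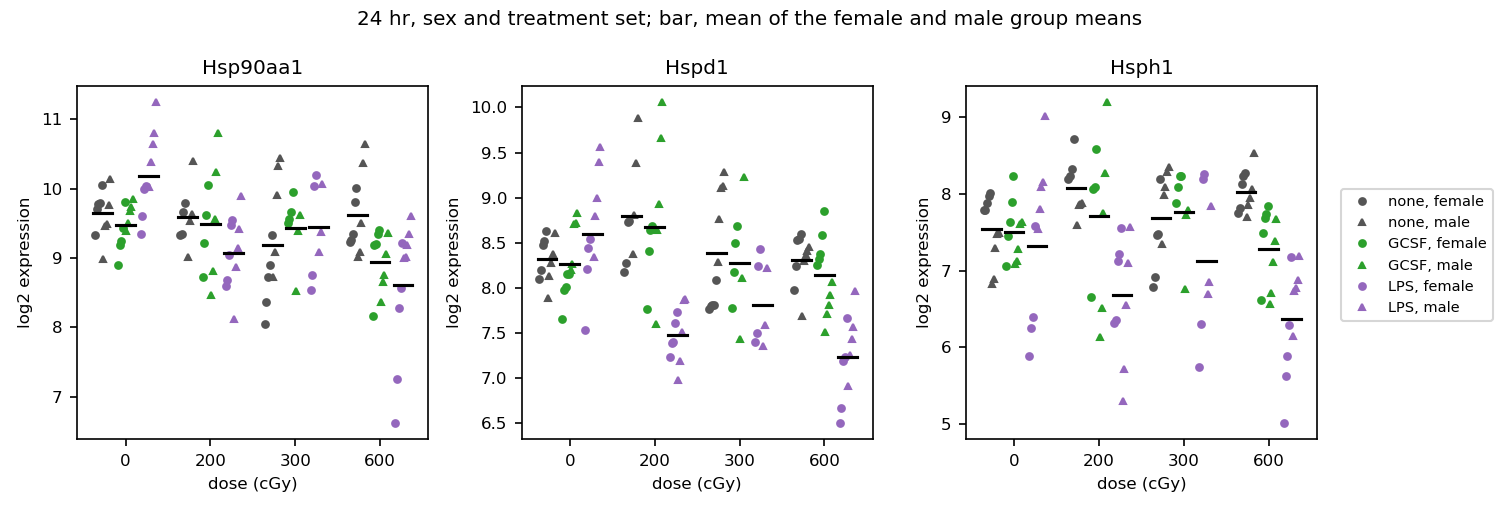
Log2 expression of Hsp90aa1, Hspd1 and Hsph1 at 24 hr by dose (cGy) without agent (grey), under GCSF (green) and under LPS (purple), with circles females, triangles males and bars the mean of the female and male group means. The purple mean is lower at 600 than at 0 cGy in each panel, and the grey and purple points overlap at 0 cGy.

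In the unirradiated mice of this set each agent was compared with no agent. LPS lowered Dnajb1 at 6 hr, 1 of 7 members beside 20.5% of all genes called downward. Under LPS it read 7.02, 7.19 and 7.64 in females and 6.89, 6.92, 7.03, 7.39 and 7.67 in males, and without agent 8.30, 8.51, 8.59, 8.65 and 8.73 in females and 6.88, 7.41, 7.56, 7.60 and 7.95 in males. The females stood apart and the males overlapped, and the difference over both sexes was -0.79 ± 0.19 (limma adjusted p = 0.000693). With the array spread as a covariate it was -0.35 (adjusted p = 0.043), and Hsp90aa1 (0.82) and Hspa5 (0.74) were then called higher under LPS. At the same time 11 of 14 B cell genes fell under LPS (median -1.63) and 8 of 12 neutrophil genes rose (0.84), and their part was not tested.

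At 24 hr LPS raised Hspa5, 1 of 7 members beside 9.20% of all genes. It read 9.32, 9.76, 9.92 and 10.05 in females and 9.76, 10.29, 10.46, 11 and 11.66 in males under LPS, against 9.33, 9.44, 9.58, 9.65 and 9.88 in females and 8.85, 9.24, 9.26, 9.50 and 9.71 in males without agent. The males stood apart and the females overlapped; the difference was 0.75 ± 0.26 (limma adjusted p = 0.0227) and missed the threshold without replicate 1, 3 or 4. Hsp90aa1 was called higher under LPS as well with the array spread as a covariate (0.674, adjusted p = 0.000876). At the same time all 12 neutrophil genes rose under LPS (median 1.99), and 13 of 14 B cell genes (-2.42) and all 13 T cell genes (-1.55) fell, and their part was not tested. GCSF called no member at 0 cGy in limma at 6 hr (beside 0.00% of all genes, 0 members at an unadjusted p under 0.05) or at 24 hr (beside 0.549%, 1 member at an unadjusted p under 0.05).

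Unirradiated males and females differed at 6 hr. Without agent, 6 of 7 members were called, all lower in males, beside 27.8% of all genes called in either direction (1864 of the 12393 lower in males). Hspa5 read 10.26, 10.34, 10.74, 10.81 and 11.32 in females and 8.70, 9.0, 9.01, 9.30 and 9.54 in males, a difference of -1.58 ± 0.36 with no overlap (limma adjusted p = 0.000651). Hsp90aa1 read 10.25, 10.34, 10.62, 10.67 and 10.79 in females and 8.50, 8.94, 9.09, 9.12 and 9.54 in males, also without overlap (-1.50 ± 0.34, limma adjusted p = 0.00073).

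The cytosolic cofactors showed the same order. Hsph1 read 8.26, 8.55, 8.61, 8.66 and 8.72 in females and 6.34, 6.94, 7.37, 7.64 and 7.75 in males (-1.35 ± 0.33, limma adjusted p = 0.00153). Dnajb1, with the female and male values given above, was lower in every male than in every female (-1.08 ± 0.25, limma adjusted p = 0.00114), as was Hsph1. Hspa8 read 11.38, 11.51, 11.68, 11.85 and 11.94 in females and 10.09, 10.95, 10.96, 11.06 and 11.16 in males (-0.83 ± 0.24, limma adjusted p = 0.00884). The groups again did not overlap, although 1 male stood far below the others.

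The mitochondrial pair split. Hspd1 read 8.82, 8.92, 8.96, 9.01 and 9.14 in females and 7.37, 7.83, 8.06, 8.15 and 8.80 in males (-0.93 ± 0.27, limma adjusted p = 0.0093), with the highest male just under the lowest female. Hspe1 read 8.36, 8.56, 9.06, 9.13 and 9.20 in females and 7.98, 8.43, 8.89, 8.97 and 9.31 in males, which overlapped and was not called (-0.14 for males minus females). At 24 hr no member was called in limma (0 of 7 beside 0.0726% of all genes called in either direction, 2 members at an unadjusted p under 0.05).

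**Figure D5:**
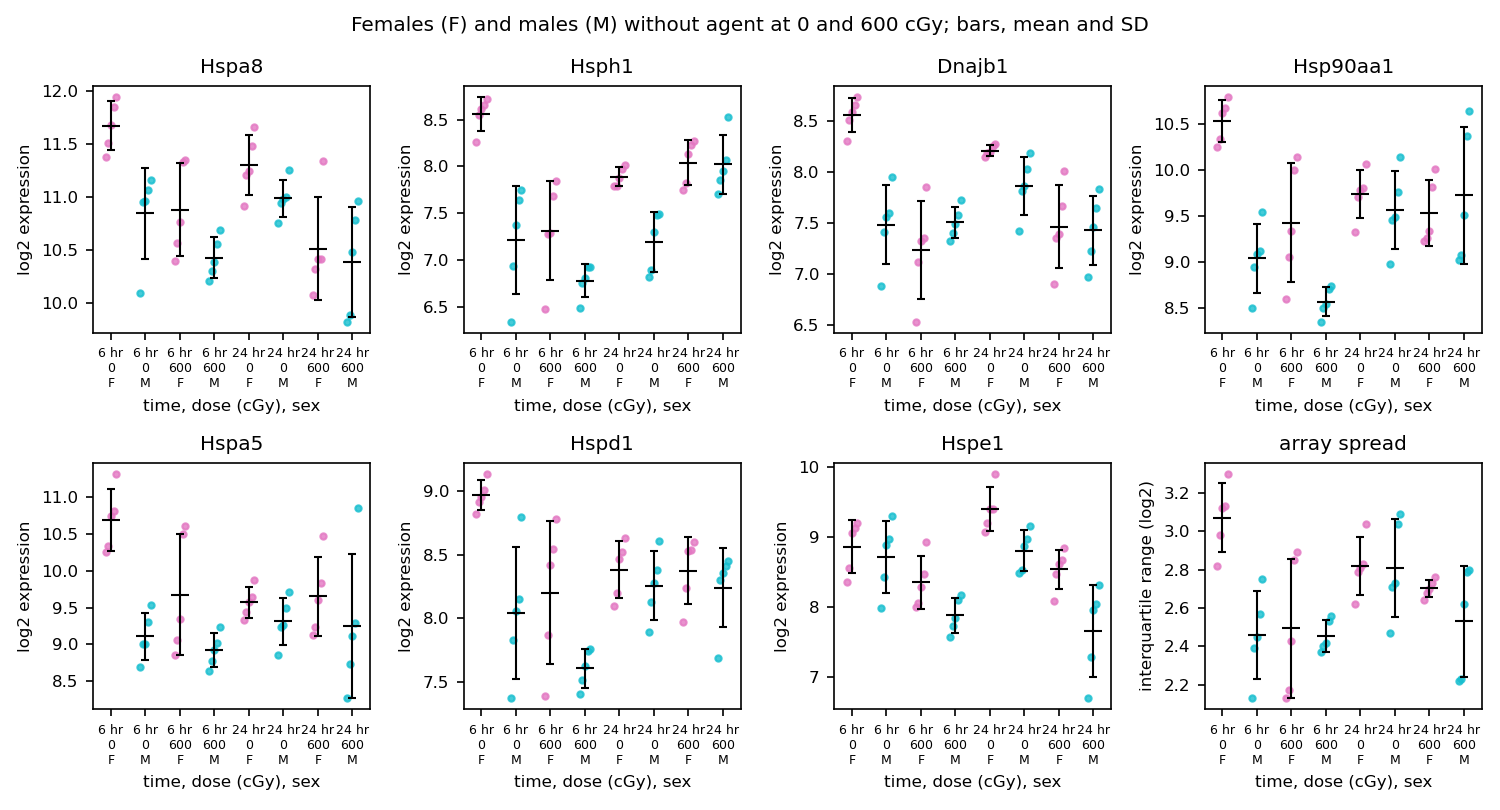
Log2 expression of the 7 chaperone genes and the array spread in females (pink, F) and males (cyan, M) without agent at 0 and 600 cGy and at 6 and 24 hr, with bars the mean and SD of 5 mice. At 6 hr and 0 cGy females lie above males in 6 gene panels, and the array spread is also higher in them. How many of all genes separate the sexes in this way was not counted.

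The array spread at 6 hr and 0 cGy averaged 3.07 in females and 2.46 in males, and with it as a covariate no member was called (0 of 7). Of the marker lists, 7 of 13 T cell genes (median -0.83) and 5 of 14 B cell genes (median -0.78) were lower in males. Among 9 NK cell genes 2 were lower, and among 9 monocyte genes 2. Of 13 platelet genes 6 were higher and 1 lower (median 0.30), and 3 of 17 hepatocyte genes were higher (median 2.05). The part of these cell types was not tested. Without replicate 5 the Hspa8 difference missed the threshold (adjusted p = 0.069), as did that of Hspd1 without replicate 1 or 5 (0.055 and 0.077) and after quantile normalisation (0.087). The dose slope at 6 hr was less steep in males for Dnajb1, by 0.231 ± 0.059 log2 per 100 cGy (limma adjusted p = 0.00367), 1 of 7 members beside 8.98% of all genes. That difference ended with the array spread as a covariate (0.114, adjusted p = 0.051) and without replicate 5 (0.181, adjusted p = 0.11). At 24 hr no member had a called slope difference between the sexes in limma (0 of 7 beside 0.00% of all genes, 0 members at an unadjusted p under 0.05).

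In the small treatment set Hsph1 was the member that fell at 600 cGy without agent, 1 of 7 beside 1.86% of all genes. It ranged from 7.59 to 8.74 (median 8.31) in 6 mice at 0 cGy and read 7.25, 7.38, 7.56, 7.60 and 7.80 in 5 mice at 600 cGy. The lowest control lay within the irradiated range, and the difference was -0.77 ± 0.18 (limma adjusted p = 0.00367), which ended without replicate 1 or 4 (0.05 and 0.071). At 150 cGy Hsph1 (-0.58 ± 0.17, limma adjusted p = 0.0457) and Dnajb1 (-0.50 ± 0.15, 0.0379) were called, 2 of 7 beside 1.07%, and at most 1 of them was called when any of replicates 1 to 5 was left out. The fit with the array spread as a covariate called Hspe1 lower at 150 and 600 cGy (-0.632 and -0.541), and Hsp90aa1 (-0.618) and Dnajb1 (-0.472) at 600 cGy. Under GCSF 600 cGy lowered Hspe1 (-0.82, limma adjusted p = 0.00691), Hsph1 (-0.69, 0.00339), Hspa8 (-0.68, 0.0053) and Dnajb1 (-0.54, 0.00642), 4 of 7 beside 14.1%; the calls of Dnajb1 and Hspa8 ended without replicate 3 and that of Hspe1 without replicate 2. Under LPS it lowered Hsph1 only (-0.51, limma adjusted p = 0.0326), 1 of 7 beside 9.55%, and that call ended in 8 alternative fits, among them the array spread as a covariate, which called Hspa5 higher (0.531, adjusted p = 0.0189). At 150 cGy no member was called under GCSF (beside 1.77% of all genes, 1 member at an unadjusted p under 0.05 in limma) or LPS (beside 3.58%, 0 members). The effect of 600 cGy was not called different with either agent for any member in limma (beside 0.0323% and 3.15% of all genes, 0 members at an unadjusted p under 0.05).

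LPS in the small set moved the members in opposite directions at 0 cGy. Dnajb1 ranged from 7.57 to 8.83 (median 8.68) in 6 mice without agent and from 7.50 to 8.24 (median 7.86) in 6 mice under LPS, so the ranges overlapped. The difference was -0.62 ± 0.15 (limma adjusted p = 0.00107), the 1 of 7 members called downward, beside 1989 of all 12393 genes. Hspd1 ranged from 8.01 to 8.34 (median 8.14) without agent and from 8.30 to 9.24 (median 8.84) under LPS, with a difference of 0.60 ± 0.19 (limma adjusted p = 0.0158). Hsp90aa1 was higher as well (0.73 ± 0.28, limma adjusted p = 0.0484), so that 2 of 7 were called upward, beside 10.2% of all genes. The Hspd1 call ended without replicate 1 or 5, and the Hsp90aa1 call without replicate 1, 4 or 5.

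In irradiated mice of this set, LPS against no agent raised Hspe1 (0.71, limma adjusted p = 0.0228), Hspa5 (0.64, 0.0325) and Hspd1 (0.63, 0.0178) at 150 cGy, 3 of 7 beside 8.93% of all genes, and lowered Dnajb1 at 600 cGy (-0.60 ± 0.15, limma adjusted p = 0.00158), 1 of 7 beside 24.1%. Each of the 3 rises ended without replicate 4 or 5, that of Hspe1 also without replicate 1 and that of Hspa5 without replicate 2, and the Dnajb1 fall ended with the array spread as a covariate (-0.30, adjusted p = 0.26) and after quantile normalisation (-0.28, 0.12). With that covariate LPS also raised Hsp90aa1 at 150 and 600 cGy (1.428 and 1.431), and Hspa5 (0.917) and Hspd1 (0.742) at 600 cGy. GCSF called no member at 0, 150 or 600 cGy in limma (beside 0.549%, 0.0726% and 0.258% of all genes; 0, 0 and 2 members at an unadjusted p under 0.05).

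The small 7 day set gave a separate look at a low dose at 168 hr. Hspe1 read 10.17, 10.18 and 10.28 in the 3 mice at 0 cGy and ranged from 7.78 to 9.20 (median 8.54) in the 10 mice at 150 cGy. No irradiated mouse reached the controls, and the difference was -1.67 ± 0.20 (limma adjusted p = 9.06e-06). Hspa5 read 9.87, 9.97 and 10.38 against a range of 8.42 to 9.50 (median 8.91), also without overlap (-1.16 ± 0.23, limma adjusted p = 0.000403).

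Dnajb1 (-0.96, limma adjusted p = 0.00476), Hspa8 (-0.72, 0.000898), Hsp90aa1 (-0.67, 0.0458) and Hspd1 (-0.65, 0.0014) were lower too, so that 6 of 7 members fell beside 33.3% of all genes; Hsph1 was not called (-0.53, 0.175). The array spread averaged 3.34 at 0 cGy and 2.39 at 150 cGy. With it as a covariate Hspe1 remained lower (-1.14, adjusted p = 0.040), Hsp90aa1 was called higher (0.99, adjusted p = 0.048) and no other member was called. The Hsp90aa1 call ended in 9 alternative fits, and those of Dnajb1 (-0.42, adjusted p = 0.15) and Hspd1 (-0.048, 0.774) after quantile normalisation. All 14 erythroid genes rose at 150 cGy in this set (median 1.12), 12 of 17 hepatocyte genes rose (1.59) and 13 of 14 B cell genes fell, and their part was not tested.

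The members' group means moved together over the 48 groups of the dose and time set, with Pearson's r from 0.635 for Hsph1 and Hspa5 to 0.944 for Hspa5 and Hspd1. The genes most like each member by this measure were chosen among all 12393, and the means share arrays and array spread. Hsph1 was closest to Hsp90aa1 (0.910) and Dnajb1 (0.882), and Dnajb1 was closest to Dnaja1 (0.940), another HSP40. Hsp90aa1 was closest to Hspa8 (0.926) and to Cct6a (0.923), a subunit of the cytosolic chaperonin. Hspa5 was closest to Dnajc3 (0.967), an HSP40 of the endoplasmic reticulum, and to Atp2a2 (0.967), its calcium pump. Hspd1 was closest to Mdh1 (0.962) and to Canx (0.958), the lectin chaperone calnexin. Hspe1 was closest to Ndufab1 (0.967), Gadd45gip1 (0.966) and Timm13 (0.965). Hspa8 was closest to Tbrg1 (0.968), Nudc (0.967), an HSP90 cochaperone, and Csnk2a2 (0.966). The other genes among the 3 closest were Ube2j1 (0.857) for Hsph1 and Tram1 (0.911) and Hspa8 (0.909) for Dnajb1. They were Spcs3 (0.920) for Hsp90aa1, Scarb2 (0.965) for Hspa5 and Aco1 (0.958) for Hspd1.

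Other chaperone genes were counted in the same dose trends. Of all 12393 genes, 18.5% fell and 16.2% rose with dose at 6 hr, 19.8% and 18.9% at 24 hr, and 23.3% and 24.0% at 48 hr. Later 27.1% fell and 26.3% rose at 72 hr, 47.0% and 35.4% at 120 hr, and 46.6% and 35.5% at 168 hr. Of 13 genes of the cytosolic chaperonin TRiC and its partner prefoldin, 10 fell with dose at 6 hr and 0 rose (median difference -0.85), including Cct6a (-2.28 ± 0.34, limma adjusted p = 7.43e-07) and Cct5 (-2.01 ± 0.26, 1.02e-08). By 24 hr the count was 8 down and 0 up, by 48 hr 6 down against 1 up, and by 72 hr 4 down against 4 up. By 120 hr it was 2 down against 7 up, and by 168 hr 2 down against 8 up. Of 18 other heat shock response genes, 5 fell and 2 rose at 6 hr, among them Chordc1 (-1.41 ± 0.25, limma adjusted p = 4.75e-08), an HSP90 cochaperone whose promoter window also held the 3-unit element. At 24 hr, when Hsph1 rose, 9 of these 18 rose and 0 fell (median 0.29, all genes 0.07), including the inducible HSP70 gene Hspa1b (1.79 ± 0.42, limma adjusted p = 0.00095) and Dnajb4 (1.0 ± 0.23). At 48 hr, when Hsph1 fell, 3 of the 18 fell and 6 rose (median 0.42, all genes -0.07), so the list did not follow Hsph1 there. At 72 hr 3 of the 18 fell and 6 rose, and at 120 hr 5 fell and 9 rose. Bag3, a nucleotide exchange factor for HSP70, differed by 1.81 ± 0.18 at 72 hr and Cacybp by -1.06 ± 0.23, and at 120 hr the small heat shock proteins Hspb1 and Hspb8 differed by 2.52 and 2.75, Cacybp by -1.09 and the HSP110 relative Hspa4l by -0.38.

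Among 29 genes of the endoplasmic reticulum and its stress response, 12 fell and 2 rose at 6 hr (median -0.39). Those falling included Hsp90b1, the HSP90 of that organelle (-1.84 ± 0.37, limma adjusted p = 0.00101), and those rising were the stress transcription factors Xbp1 (0.83 ± 0.23, limma adjusted p = 1.73e-11) and Ddit3 (0.71 ± 0.21). The balance turned with time. At 48 hr, when the Hspa5 slope was not called, 3 were down and 14 up (median 0.55, all genes -0.07). At the times when Hspa5 rose, 4 were down and 21 up at 72 hr (median 0.89, all genes -0.10), 2 down and 22 up at 120 hr (0.78), and 6 down and 22 up at 168 hr (0.52). Edem1, which helps discard misfolded glycoproteins, differed by 2.18 ± 0.23 at 72 hr, and P4hb, a protein disulfide isomerase, by 1.80 ± 0.39 at 72 hr and 2.12 at 168 hr. The stress element of the Hspa5 promoter was found in windows of 8 of 26 of these genes, namely Calr, Canx, Creld2, Derl3, Dnajc3, Hsp90b1, Pdia6 and Syvn1.

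Of 14 other mitochondrial chaperone and protease genes, 4 were down and 0 up at 6 hr (median -0.47) and 7 down and 2 up at 48 hr. Then 6 were down and 3 up at 72 hr, and 3 down and 9 up at 168 hr. Hscb, which works in iron-sulfur cluster assembly, differed by -4.12 ± 0.35 at 72 hr, beside the fall of the erythroid list. Of 22 HSP70 and HSP90 cochaperones, 7 were down and 2 up at 6 hr, 5 down and 9 up at 72 hr, then 7 down and 10 up at 168 hr.

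The array held 16 probe sets for the 7 members, and Hspd1 had 1. Every adjusted p of this paragraph is that of the dose slope. At 6 hr the other probe sets of Hsp90aa1, Dnajb1 and Hspe1 were called downward as well, and those of Hspa8 but for a dim one (-0.33, limma adjusted p = 0.294). The second Hsph1 probe set, with a mean of 5.02, was not called at 6 hr (-0.24, limma adjusted p = 0.142) but had a called upward slope at 24 hr, as the chosen one did (0.076, limma adjusted p = 0.0025). It was not called at 48 hr (-0.025, limma adjusted p = 0.33) or 72 hr (0.028, 0.26), where the chosen one fell. The dim Hspa8 probe set fell at 72 hr (-1.03, limma adjusted p = 3.48e-11), where the others were not called, and at 120 hr, where the others rose. Both Hspa5 probe sets rose at 72, 120 and 168 hr. Neither other Hsp90aa1 probe set was called at 48 hr (slopes -0.002 and -0.023, limma adjusted p = 0.941 and 0.488), where the chosen one fell. The brighter of them (mean 8.79) rose at 72 hr (0.053, limma adjusted p = 0.0161) and 168 hr (0.087, 2.37e-05), where the chosen one and the dimmer one were not called. At 120 hr all Hsp90aa1 probe sets rose. The second probe set of Dnajb1 fell at 72 hr and was not called at 120 or 168 hr, and that of Hspe1 fell at 72 hr (-0.060, limma adjusted p = 0.000311), rose at 168 hr and was not called at 120 hr, so the upward slopes of Dnajb1 at both late times and of Hspe1 at 120 hr rest on 1 probe set each.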

How the data were processed

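Blood RNA of 536 arrays was analysed from the series table. Its values are log2 expression, deposited by the authors after RMA with the affy package, per the submitters' processing notes; whether the 3 batches named in the design text were normalised together is not given in the sources used here. Array medians lay between 5.61 and 5.93. Of 22690 probe sets, 20380 had 1 gene symbol, giving 12393 genes, each read by its brightest probe set. Repeat arrays of a mouse were averaged. Each of the 4 sets was fitted alone with limma 3.58.1 (R 4.3.3), 1 mean per group, and p-values were Benjamini-Hochberg adjusted over all 12393 genes. Slopes and interactions were contrasts of group means, and females and males were weighted equally. The number of mice limits precision. In the alternatives, replicates 1 to 5 are the mice of a group ordered by title code and mouse number. Mouse numbers did not pair the mice (same-number residual correlation 0.017, 0.036, 0.062 and -0.134 in the 4 sets). The members, the marker lists and the pathway lists were chosen with earlier results of these data known. Named genes were the members, the up to 2 rising and 2 falling genes of each pathway list with the largest called difference, and the 3 genes most like each member. The fits were tested on simulated data.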

Additional observations from a re-analysis of the deposited data

Results flagged for a closer look

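The dose slope differed between collection times for every member (limma moderated F test over the 6 times, Benjamini-Hochberg adjusted p): Hspe1 1.03e-25, Hspa5 1.03e-22, Hspd1 2.64e-22, Hspa8 2.18e-18, Hsph1 1.61e-14, Dnajb1 1.99e-10 and Hsp90aa1 3.54e-08. Of all genes, 92.3% were called in the same test. Under LPS the slope at 24 hr was lower than without agent by -0.231 log2 per 100 cGy for Hsp90aa1, -0.208 for Hsph1 and -0.182 for Hspd1, beside 9.13% of all genes called lower. The Hsp90aa1 call ended without replicate 4. The 6 hr slope of Dnajb1 was less steep in males than in females by 0.231 per 100 cGy, beside 8.98% of all genes. That call ended with the array spread as a covariate and without replicate 5.

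Single mice stood far from their group. Hspe1 read 8.69 in 1 unirradiated mouse at 168 hr, below the other 4. Dnajb1 read 7.57 in 1 unirradiated mouse of the small treatment set, below the other 5. Hspa8 read 10.09 in 1 unirradiated male at 6 hr, and Hspd1 read 7.69 in 1 male at 600 cGy and 24 hr, each below the other 4. These were 4 of 97 gene and group pairs examined here and 43 of 721 over all groups of the members, where chance gives about 1 in 20.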

How the results depend on the processing

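Most results kept their direction and side of the threshold, and more of them changed with the array spread as a covariate than with any other choice listed here; the cause was not tested. Of the calls of single members, 41 ended with the array spread as a covariate, 23 after quantile normalisation, 12 with the mouse number as a replicate block, 11 with probe sets averaged, 11 with only the groups compared in the fit, 9 after median centring and 21 to 30 when 1 mouse of each group was left out. Counts below are members called of 7, or member and dose pairs of 49, with the value before the change first. They have no share of all genes beside them. After quantile normalisation, the following dose slopes changed sign. At 168 hr they were Hsph1 -0.041 and Hsp90aa1 -0.034. With the array spread as a covariate, the following dose slopes changed sign. At 24 hr they were Hspa8 0.032 and Hspa5 0.05. At 120 hr they were Hsph1 -0.021, Dnajb1 -0.036 and Hsp90aa1 -0.05. At 168 hr they were Hsph1 -0.073, Hspd1 -0.015, Dnajb1 -0.029 and Hsp90aa1 -0.09. With the array spread as a covariate, the following differences from 0 cGy changed sign. For 100 cGy at 120 hr they were Hsph1 0.992, Hspa8 0.709, Hspa5 1.187, Hspd1 1.151, Hspe1 0.23, Dnajb1 0.398 and Hsp90aa1 0.7. For 200 cGy at 120 hr they were Hsph1 0.676, Hspa8 0.561, Hspa5 1.119, Hspd1 0.952, Hspe1 0.139, Dnajb1 0.117 and Hsp90aa1 0.592. For 300 cGy at 120 hr they were Hspa8 0.392, Hspa5 0.639, Hspd1 0.76 and Hsp90aa1 0.461. For 200 cGy at 168 hr they were Hspa8 0.218, Hspa5 0.866, Hspd1 0.367, Hspe1 0.454 and Hsp90aa1 0.229. For 300 cGy at 168 hr they were Hspa5 0.573, Hspe1 0.087 and Hsp90aa1 0.267. For 450 cGy at 168 hr they were Hspa8 0.202, Hspa5 0.794, Hspd1 0.092, Hspe1 0.344 and Hsp90aa1 0.212. For 150 cGy at 168 hr in the small 7 day set they were Hspa8 0.06, Hspd1 0.004, Dnajb1 0.635 and Hsp90aa1 0.992. Without arrays whose Alb is 10 or more, the following dose slopes changed sign. At 120 hr they were Hsph1 -0.001, Hspa8 -0.133, Hspa5 -0.186, Hspd1 -0.034, Hspe1 -0.325, Dnajb1 -0.224 and Hsp90aa1 -0.104. At 168 hr they were Hsph1 -0.464, Hspa8 -0.43, Hspa5 -0.463, Hspd1 -0.49, Hspe1 -0.472, Dnajb1 -0.553 and Hsp90aa1 -0.381. Over 0 to 450 cGy only, chosen after seeing the data, the following dose slopes changed sign. At 120 hr they were Hspe1 -0.097 and Dnajb1 -0.02. At 168 hr they were Hsph1 -0.21, Hspa8 -0.223, Hspa5 -0.24, Hspd1 -0.28, Hspe1 -0.245, Dnajb1 -0.331 and Hsp90aa1 -0.206. With the F test over all differences from 0 cGy the count went from 2 to 5 (dose trend at 24 hr) and from 2 to 1 (dose trend, GCSF, 24 hr). With quantile normalisation within the set the count went from 7 to 4 (dose trend at 120 hr), from 5 to 16 (pairs at 48 hr), from 9 to 23 (pairs at 72 hr), from 1 to 2 (LPS vs none at 0 cGy, 24 hr), from 1 to 2 (600 cGy vs 0 cGy, none, small set), from 1 to 2 (LPS vs none at 600 cGy, small set) and from 6 to 3 (150 cGy vs 0 cGy at 168 hr, small 7 day set). With each array centred on its median the count went from 4 to 2 (dose trend at 48 hr), from 2 to 1 (dose trend, GCSF, 24 hr), from 2 to 0 (150 cGy vs 0 cGy, none, small set) and from 1 to 0 (600 cGy vs 0 cGy, LPS, small set). With the array spread as a covariate the count went from 2 to 4 (dose trend at 24 hr), from 7 to 4 (dose trend at 120 hr), from 5 to 3 (dose trend at 168 hr), from 35 to 7 (pairs at 6 hr), from 6 to 14 (pairs at 24 hr), from 5 to 33 (pairs at 48 hr), from 9 to 32 (pairs at 72 hr), from 33 to 21 (pairs at 168 hr), from 7 to 1 (dose trend, none, 6 hr), from 7 to 3 (dose trend, GCSF, 6 hr), from 2 to 4 (dose trend, GCSF, 24 hr), from 1 to 3 (LPS vs none at 0 cGy, 6 hr), from 1 to 2 (LPS vs none at 0 cGy, 24 hr), from 6 to 0 (male minus female at 0 cGy, none, 6 hr), from 1 to 0 (slope, male minus female, none, 6 hr), from 1 to 4 (600 cGy vs 0 cGy, none, small set), from 1 to 3 (LPS vs none at 600 cGy, small set) and from 6 to 2 (150 cGy vs 0 cGy at 168 hr, small 7 day set). With dose on a log2 scale the count went from 4 to 2 (dose trend at 48 hr) and from 2 to 1 (dose trend, GCSF, 24 hr). With arrays whose Alb is 10 or more left out the count went from 4 to 2 (dose trend at 48 hr), from 4 to 2 (dose trend at 72 hr) and from 7 to 3 (dose trend at 120 hr). With doses of 0 to 450 cGy only the count went from 7 to 2 (dose trend at 120 hr). With the mouse number as a replicate block the count went from 2 to 1 (dose trend, GCSF, 24 hr), from 1 to 2 (600 cGy vs 0 cGy, none, small set) and from 3 to 1 (LPS vs none at 150 cGy, small set). With only the groups compared in the fit the count went from 2 to 1 (dose trend, GCSF, 24 hr), from 1 to 2 (LPS vs none at 0 cGy, 6 hr), from 0 to 1 (GCSF vs none at 0 cGy, 24 hr), from 1 to 2 (LPS vs none at 0 cGy, 24 hr) and from 2 to 0 (150 cGy vs 0 cGy, none, small set). With probe sets averaged per gene the count went from 1 to 2 (LPS vs none at 0 cGy, 6 hr) and from 2 to 1 (150 cGy vs 0 cGy, none, small set). With dim genes left out the count went from 1 to 2 (600 cGy vs 0 cGy, LPS, small set). Leaving out 1 mouse of each group in turn gave counts of 1 to 4 against 2 (dose trend at 24 hr), 4 to 11 against 5 (pairs at 48 hr), 2 to 3 against 4 (dose trend at 48 hr), 3 to 7 against 6 (pairs at 24 hr), 5 to 13 against 9 (pairs at 72 hr), 2 to 5 against 4 (dose trend at 72 hr), 0 to 2 against 2 (dose trend, GCSF, 24 hr), 0 to 1 against 1 (LPS vs none at 0 cGy, 24 hr), 2 to 7 against 7 (dose trend, none, 6 hr), 3 to 6 against 5 (dose trend, LPS, 24 hr), 1 to 2 against 1 (LPS vs none at 0 cGy, 6 hr), 0 to 1 against 1 (slope, male minus female, none, 6 hr), 0 to 1 against 2 (150 cGy vs 0 cGy, none, small set), 0 to 1 against 1 (600 cGy vs 0 cGy, none, small set), 0 to 4 against 1 (600 cGy vs 0 cGy, LPS, small set), 1 to 3 against 3 (LPS vs none at 0 cGy, small set) and 0 to 3 against 3 (LPS vs none at 150 cGy, small set). The mouse number as a replicate block changed no other count by over 1.5 times; mouse numbers do not pair the mice.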
